A study of Mus musculus with 8 samples.

Results

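Receptors of the TNF family were followed in leptin receptor positive (LEPR+) stromal cells of mouse bone marrow. The animals were given a decoy for ligands of the lymphotoxin β receptor (LTβR) or a control antibody. The members were the 10 receptor genes Ltbr, Edar, Tnfrsf1a, Tnfrsf1b, Tnfrsf12a, Tnfrsf19, Tnfrsf21, Cd40, Fas and Ngfr, found by gene symbol among 52636 genes of the count matrix. C57BL/6 mice were injected into a vein with 150 µg per week for 3 weeks. The control group received HEL-Ig, an IgG1 against hen egg lysozyme, and the other group received LTβR-Ig, a soluble form of the receptor that competes for its ligands. Each group held 4 libraries, numbered here by group and replicate. The design speaks of 4 pairs without saying what a pair has in common. The labels do not say whether a library came from a single mouse or a pool, so the p-values below reflect library-to-library spread, which may be technical. The decoy circulated through the whole animal and was not directed at LEPR+ cells.

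TNF-family receptors are membrane proteins with cysteine-rich domains that bind trimeric ligands. One class carries a death domain in the cytoplasm and can start caspase or NF-κB signalling, and among these members it includes TNFR1 (Tnfrsf1a), FAS, EDAR, DR6 (Tnfrsf21) and the neurotrophin receptor p75 (Ngfr). The other class recruits TRAF adaptors directly and includes LTβR, TNFR2 (Tnfrsf1b), FN14 (Tnfrsf12a), TROY (Tnfrsf19) and CD40. In marrow and lymphoid stroma LTβR is known for switching on the non-canonical NF-κB pathway through the kinase NIK.

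The sequences just upstream of Edar and Ltbr are shown because Edar had the smallest p of the members. Ltbr encodes the receptor of which the decoy is a soluble form. Each is the 250 bases before the RefSeq gene start in GRCm38.p6, on the minus strand and 5′ to 3′ in the direction of the gene. Edar lies at chr10:58675697-58675946 and Ltbr at chr6:125313886-125314135. Capitals mark matches to GGGNNNNNCC on either strand, the outline of an NF-κB site.
Edar: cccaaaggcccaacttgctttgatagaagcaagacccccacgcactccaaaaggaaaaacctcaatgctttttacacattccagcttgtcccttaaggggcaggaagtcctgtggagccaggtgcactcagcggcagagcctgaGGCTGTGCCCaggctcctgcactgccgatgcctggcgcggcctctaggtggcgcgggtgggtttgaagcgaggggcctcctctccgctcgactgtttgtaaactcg
Ltbr: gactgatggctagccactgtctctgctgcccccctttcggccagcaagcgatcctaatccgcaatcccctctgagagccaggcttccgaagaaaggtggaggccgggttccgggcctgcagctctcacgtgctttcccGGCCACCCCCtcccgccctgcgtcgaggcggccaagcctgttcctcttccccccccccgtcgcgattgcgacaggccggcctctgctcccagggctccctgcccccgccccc
Each window held 1 such match, starting at position -106 for Edar and -112 for Ltbr counted from the gene start. The outline occurred in 45.8% of 32851 windows of the same length. The full κB consensus, a stricter form whose matches are all matches of the outline, occurred in 7.25% of these windows and in neither of those printed. RefSeq windows were found for 9 of the 10 members and not for Cd40. Of the 9, 7 held the outline and 0 the consensus. These matches describe letters in a window and are not binding sites.

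In mm10, Edar (ENSMUSG00000003227.4) spans chromosome 10 from 58600789 to 58675654. Ltbr (ENSMUSG00000030339.7) spans chromosome 6 from 125306571 to 125313885, and the end of its locus is 35476 bp from Tnfrsf1a (ENSMUSG00000030341.17, 125349362 to 125362484) on the same chromosome. Tnfrsf12a (ENSMUSG00000023905.14, 23675445 to 23677468) and Tnfrsf21 (ENSMUSG00000023915.4, 43016555 to 43089189) lie on chromosome 17. The others are Tnfrsf1b on chromosome 4 (ENSMUSG00000028599.10, 145213463 to 145246870), Tnfrsf19 on chromosome 14 (ENSMUSG00000060548.13, 60963875 to 61046490), Cd40 on chromosome 2 (ENSMUSG00000017652.16, 165055627 to 165072948), Fas on chromosome 19 (ENSMUSG00000024778.12, 34290666 to 34327772) and Ngfr on chromosome 11 (ENSMUSG00000000120.6, 95568818 to 95587735). All 10 are annotated as protein coding. The loci of Tnfrsf19 and Fas each overlap a non-coding locus without sharing an exon with it, and the other members overlap no annotated gene.

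Total counts lay between 52378101 and 64403177 per library. All 8 markers of LEPR+ stroma, among them Lepr and Cxcl12, were detected in every library, with a summed level of 24001 to 30755 CPM (counts scaled to a common library size) in control against 26568 to 34355 CPM with LTβR-Ig. Transcripts of blood, vessel, nerve and bone cells were also present. Osteoblast markers summed to 10989 to 23133 CPM in control and 11477 to 18745 CPM with LTβR-Ig. Erythroid markers summed to 6058 to 17961 and 6193 to 13412 CPM, and neutrophil markers to 3577 to 8508 and 4070 to 8198 CPM. Megakaryocyte and platelet markers summed to 524 to 2291 and 788 to 3236 CPM. The remaining lists besides LEPR+ stroma had lower sums. Of 64 markers tested from 11 cell type lists, 0 passed an adjusted p of 0.05 by edgeR. At an unadjusted p under 0.05, 2 osteoblast markers and 1 Schwann and nerve marker were higher, while 2 markers of LEPR+ stroma and 1 mural marker were lower. The 64 thus held 3 higher and 3 lower, against 3.39 and 2.93% of all genes. DESeq2, which called 1.95% of all genes, called Kitl lower and Alpl higher. The part of these markers in the receptor values was not tested. Control 3 and LTβR-Ig 2 stood at opposite ends of the first principal component. On the second, controls 1 and 2 (36.5 and 34.3) lay apart from controls 3 and 4 (-28.5 and -30.5). LTβR-Ig 1 to 4 were at 26.8, 1.9, -29.7 and -10.8 there.

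Receptor levels in control libraries were compared first, as TMM-scaled CPM per kb of exon (RPKM), because longer transcripts collect more reads. TNFR1, the ubiquitous receptor for TNF, was the most abundant member, with Tnfrsf1a at 88.9 ± 7.42 RPKM (SD, n = 4). Tnfrsf19, an orphan receptor related to EDAR, followed at 57.6 ± 8.76 RPKM. Tnfrsf21, which encodes a death receptor studied mostly in neurons and lymphocytes, was at 35.6 ± 2.59 RPKM and Ltbr at 31.7 ± 3.74 RPKM, and these neighbours overlapped between libraries. Ltbr did not overlap with the next gene, Fas.

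Fas, the receptor for FAS ligand, was at 17.4 ± 3.61 RPKM, Tnfrsf1b at 14.1 ± 3.96 RPKM and Edar at 11.9 ± 2.01 RPKM, each overlapping with its neighbour. Tnfrsf12a, the receptor for TWEAK, was lower at 2.46 ± 1.25 RPKM. This value depends on the length used, since its longest transcript has 984 bp against 1932 bp of summed exons, and with the longest transcript it was 4.84 RPKM. Cd40, a costimulatory receptor of B cells and other antigen-presenting cells, was at 0.323 ± 0.177 RPKM, and Ngfr at 0.0707 ± 0.113 RPKM. All 10 receptors kept their place in this order with the longest transcript as length, with scaling to reads per kb within each library, and without each control library.

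**Figure D1:**
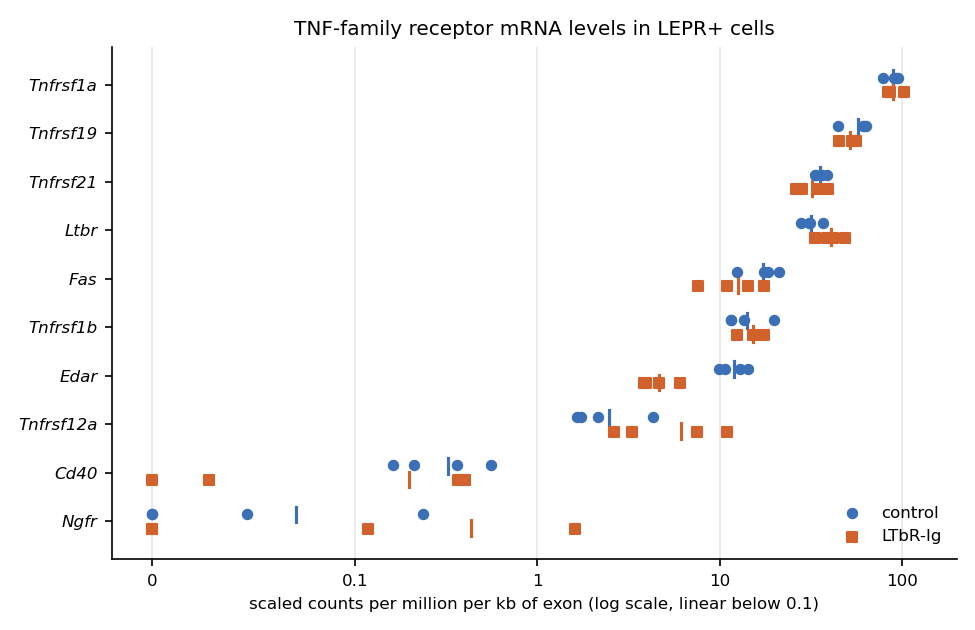
Level of each receptor in every library, as TMM-scaled CPM per kb of exon on an axis that is logarithmic above 0.1 and linear below it. Circles are the 4 control and squares the 4 LTβR-Ig libraries, vertical ticks are group means. Tnfrsf1a leads at 88.9 RPKM in control, Ngfr and Cd40 lie below 1 RPKM on average in both groups, and Edar is the receptor with a level above 1 RPKM whose groups are apart.

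In the summed level of the 10 receptors, Tnfrsf1a took 34.2 ± 1.66% in control libraries and 35.2 ± 1.17% with LTβR-Ig. The share of Ltbr was 12.2 ± 1.01% and 16.0 ± 1.56%, and that of Edar 4.60 ± 0.827% and 1.82 ± 0.290% (SD, n = 4 each). By group means with LTβR-Ig, 4 neighbouring pairs stood in the other order than in control: Ltbr above Tnfrsf21, Tnfrsf1b above Fas, Tnfrsf12a above Edar and Ngfr above Cd40. For Tnfrsf12a this rested on LTβR-Ig 2 and 4, at 7.48 and 10.96 RPKM against 6.07 and 4.65 RPKM for Edar, while in LTβR-Ig 1 and 3 it was below Edar, at 3.31 and 2.64 against 3.83 and 3.96 RPKM. These shares are descriptions, and a change in one receptor moves those of all others.

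The comparison between the groups asked which receptors differed with LTβR-Ig. Edar was the only member whose groups did not overlap, with all LTβR-Ig libraries below all control libraries; 2.53% of all genes were separate in this direction and 2.36% in the other. Edar, the receptor for ectodysplasin A1 known for its part in hair, tooth and gland development, was at 38.6, 35.9, 51.7 and 47.2 CPM in controls 1 to 4 and at 13.9, 22.1, 14.4 and 16.9 CPM in LTβR-Ig 1 to 4. The nearest libraries of the groups were control 2 and LTβR-Ig 2. The fitted level was 2.57-fold lower with LTβR-Ig, which is -1.36 as log2 fold change (SE 0.21, 95% interval -1.84 to -0.89). The quasi-likelihood test of edgeR gave an unadjusted p of 0.000115 and, with Benjamini-Hochberg adjustment over 16045 genes, 0.0859, so Edar did not pass the threshold of 0.05. In bulk RNA a smaller number of cells with the transcript and less transcript per cell cannot be told apart.

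Edar passed in other fits of the same counts. DESeq2 gave a log2 fold change of -1.37 with an adjusted p of 1.79e-07, in a test that called 1.95% of genes, and edgeR on genes past a stricter filter on low counts gave -1.37 with an adjusted p of 0.0428, where 0.201% of genes were called. Limma-voom with sample weights gave -1.36 and an adjusted p of 0.0711, where 0.106% of genes were called. The size of the difference moved little: it lay between -1.52 and -1.26 over 16 alternatives, with an unadjusted p under 0.05 in 16 of 16 and adjusted p-values from 1.79e-07 to 0.36. An unadjusted p under 0.05 was reached by 6.32% of all genes in the edgeR fit, 7.38% with the stricter filter, 7.46% with DESeq2 and 7.97% with limma-voom. The counts of Edar, 816 to 2896 per library, were far above the filter on low counts.

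**Figure D2:**
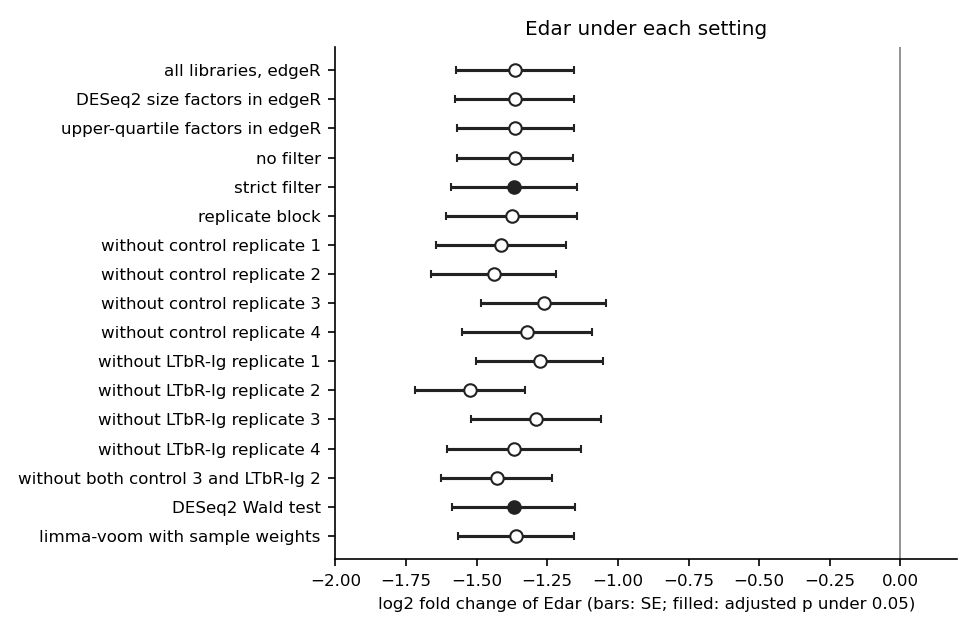
Log2 fold change of Edar, LTβR-Ig against control, under each setting on the vertical axis; bars are standard errors and filled points have an adjusted p under 0.05. All estimates lie between -1.52 and -1.26, and 2 of the 16 alternatives, DESeq2 and the stricter filter, are filled.

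Of the 9 members that could be tested, 0 passed the adjusted threshold in the edgeR fit, in which 0.0374% of all genes passed. With an unadjusted p below 0.05, 2 members were higher (3.39% of all genes) and 1 was lower (2.93%). DESeq2 and the stricter filter called 1 member each, Edar, and limma-voom called 0. The median log2 fold change of the 9 was -0.15, against 0.00 for all genes tested, and 1 of the 9 had groups that did not overlap, against 4.89% of all genes in both directions.

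**Figure D3:**
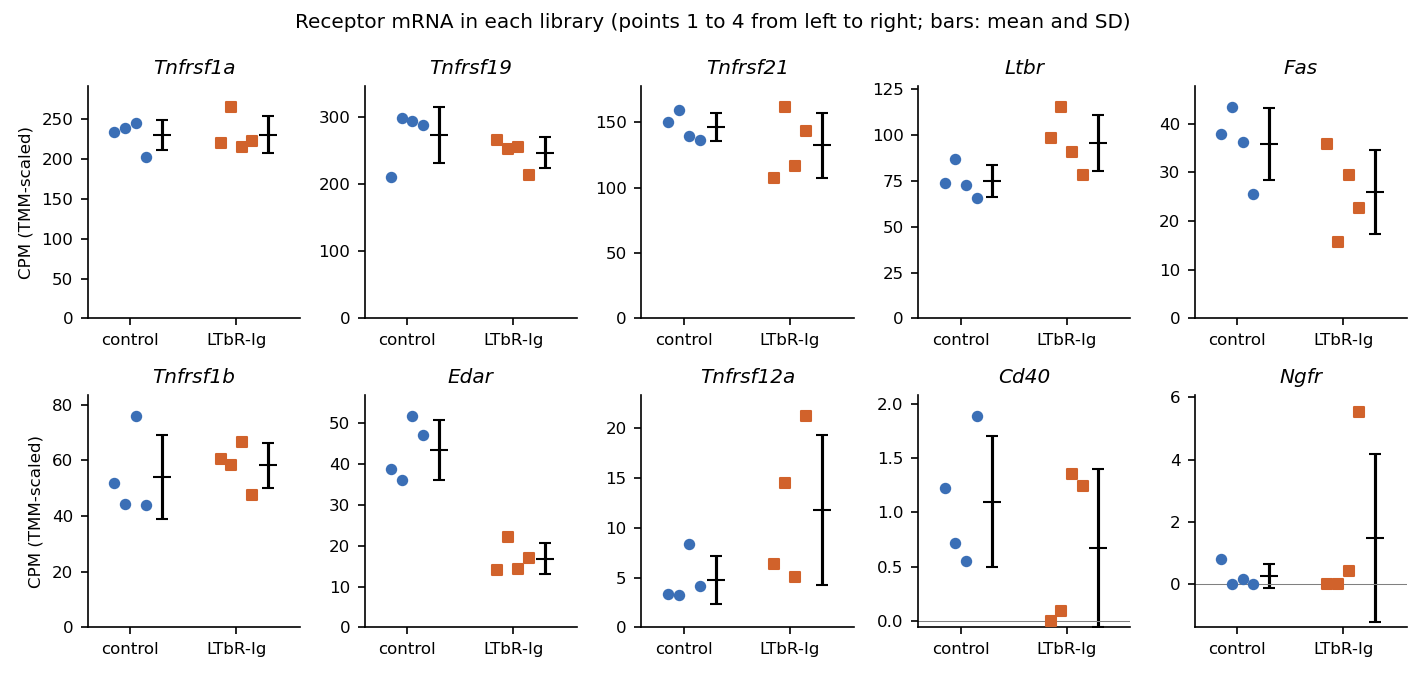
CPM of each receptor in every library on linear axes, controls as circles and LTβR-Ig libraries as squares with replicates 1 to 4 from left to right, and the mean and SD beside each group. The groups of Edar are separate, at 35.9 to 51.7 and 13.9 to 22.1 CPM, and those of the other 9 receptors overlap.

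Among the receptors that recruit TRAF adaptors directly, Ltbr was at 73.8, 86.6, 72.8 and 65.4 CPM in controls 1 to 4 and at 98.2, 115, 90.7 and 78.2 CPM in LTβR-Ig 1 to 4. Of the LTβR-Ig libraries 3 were above every control, and LTβR-Ig 4 was within the control range. The log2 fold change of Ltbr was 0.36 (SE 0.15, 95% interval 0.02 to 0.69, edgeR unadjusted p = 0.0379, adjusted p = 0.751), which did not pass. The decoy was injected as protein, and the counts are of transcripts from the sorted cells.

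Tnfrsf12a, a receptor of injury and growth responses, was at 3.34, 3.21, 8.33 and 4.16 CPM in controls 1 to 4 and at 6.40, 14.5, 5.10 and 21.2 CPM in LTβR-Ig 1 to 4. The 2 highest libraries were both from the LTβR-Ig group, and the other LTβR-Ig libraries lay between control 4 and control 3. The log2 fold change of Tnfrsf12a was 1.31 (SE 0.53, 95% interval 0.10 to 2.52, edgeR unadjusted p = 0.0374, adjusted p = 0.748), and without LTβR-Ig 4 it was 0.86. The gene for its ligand TWEAK, Tnfsf12, was at 36.3 ± 5.35 CPM (control) against 44.3 ± 3.81 CPM (LTβR-Ig; SD, n = 4 each), a log2 difference of 0.29 (edgeR adjusted p = 0.895).

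Tnfrsf1b, the second TNF receptor and one rich in blood cells, was at 51.9, 44.2, 75.9 and 43.8 CPM in controls 1 to 4 and at 60.6, 58.2, 66.5 and 47.4 CPM in LTβR-Ig 1 to 4. Its highest library in each group was number 3. The 6 monocyte and macrophage markers had their highest sums in the same libraries, control 3 at 393 CPM and LTβR-Ig 3 at 442 CPM. The others had 143 to 287 CPM (control) and 197 to 279 CPM (LTβR-Ig). The next highest sums were in control 4 and LTβR-Ig 4, which had the lowest Tnfrsf1b of their groups. Erythroid markers also had their highest sums in control 3 and LTβR-Ig 3, at 17961 and 13412 CPM. The part of either marker list in the level of Tnfrsf1b was not tested. The log2 fold change of Tnfrsf1b was 0.11 (95% interval -0.35 to 0.57), and without control 3 it was 0.32. Tnfrsf19 was at 211 to 299 CPM (control) against 214 to 266 CPM (LTβR-Ig), with a log2 fold change of -0.15 (95% interval -0.45 to 0.16). Without control 1, its lowest library in that group, Tnfrsf19 had -0.25 (edgeR unadjusted p = 0.0414, adjusted p = 0.813), and without LTβR-Ig 4 it had -0.08.

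Cd40 was low and uneven between libraries, at 1.23, 0.72, 0.55 and 1.89 CPM in controls 1 to 4 and at 0, 0.09, 1.36 and 1.25 CPM in LTβR-Ig 1 to 4. A count of 0 in LTβR-Ig 1 allows a level of up to 0.0486 CPM, for counting error only. Its log2 fold change of -0.70 had a 95% interval from -3.78 to 2.38, and it ranged from -2.53 to -0.29 over the alternatives that tested it. The spread between libraries left its direction and size unresolved. The B cell gene Pax5 was at 0.239 to 1.82 CPM (control) against 0.0566 to 1.78 CPM (LTβR-Ig), and Cd79a was at 13.2 to 28.3 and 12.8 to 16.3 CPM. The 6 B cell markers summed to 346 to 411 and 330 to 432 CPM, of which Ebf1, a factor that marrow stroma also makes, took 310 ± 12.1 CPM in control. The part of B cell transcripts in the level of Cd40 was not tested.

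Among the death domain receptors other than EDAR, Tnfrsf1a had the narrowest interval. It was at 230.4 ± 19.2 CPM (control) against 230.9 ± 23.1 CPM (LTβR-Ig; SD, n = 4 each), and its log2 fold change of 0.00 had a 95% interval of -0.24 to 0.24. Tnfrsf21 was at 146 ± 10.7 and 132 ± 24.8 CPM with -0.15 (95% interval -0.47 to 0.18), and it had -0.26 without LTβR-Ig 2 and -0.05 without LTβR-Ig 1. Fas was at 37.9, 43.4, 36.2 and 25.6 CPM in controls 1 to 4 and at 35.9, 15.8, 29.3 and 22.6 CPM in LTβR-Ig 1 to 4, so that 2 LTβR-Ig libraries were below every control and the other 2 were within the control range. Its log2 fold change was -0.47 (95% interval -1.09 to 0.16, edgeR adjusted p = 0.94), with -0.29 without LTβR-Ig 2 and a range of -0.66 to -0.28 over the alternatives.

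Ngfr, which encodes CD271, a marker used to isolate marrow stromal cells in humans, had few counts. There were 51, 0, 9 and 0 counts in controls 1 to 4 and 0, 0, 23 and 284 counts in LTβR-Ig 1 to 4. The main edgeR fit did not test Ngfr because of these low counts. The fit with no filter and some of the fits with libraries left out did, and each of these called 0 of the 10 receptors. The highest library, LTβR-Ig 4, was at 5.53 CPM, and 0 counts allow a level of up to 0.0566 CPM in LTβR-Ig 2, the highest such limit among the libraries without a read. Sox10, a transcription factor gene of Schwann cells, had 0 counts in all 8 libraries. The 6 Schwann and nerve markers summed to 140 to 214 CPM (control) against 178 to 305 CPM (LTβR-Ig), most of it S100b, at 137 ± 30.4 CPM in control. The sum was 300.0 CPM in LTβR-Ig 4, the library with the most Ngfr counts, and 305 CPM in LTβR-Ig 2, which had 0 Ngfr counts. The part of nerve cell transcripts in the level of Ngfr was not tested.

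The ligands were compared next, as genes made by or carried with the sorted cells. The ligands of LTβR are made by lymphocytes and dendritic cells, and their transcripts were at low levels here. Lta had 0 counts in 3 of 4 controls and was at 0 to 2.72 CPM in LTβR-Ig libraries, and Ltb was at 0 to 0.81 and 0 to 0.41 CPM. Tnfsf14, which encodes the further LTβR ligand LIGHT, was at 2.00, 1.85, 0.61 and 9.76 CPM in controls 1 to 4 and at 3.11, 4.34, 13.3 and 3.54 CPM in LTβR-Ig 1 to 4. The groups of all 3 genes overlapped.

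Eda, the gene for ectodysplasin, had 2440 to 4327 counts per library. It was at 59.8 ± 11.2 CPM (control) against 66.0 ± 16.6 CPM (LTβR-Ig, SD, n = 4 each). Its log2 fold change was 0.14 (95% interval -0.35 to 0.63, edgeR adjusted p = 1). The gene counts do not separate its A1 form, the ligand of EDAR, from the A2 form, the ligand of the related receptor EDA2R. Eda2r was low, at 0.30, 1.07, 2.37 and 0.96 CPM in controls 1 to 4 and at 0, 0, 0.35 and 0 CPM in LTβR-Ig 1 to 4. All LTβR-Ig libraries but number 3 had no Eda2r count, and number 3 was just above control 1. The edgeR adjusted p of Eda2r was 0.837 (unadjusted p = 0.0669). Edaradd, the adaptor of EDAR, was at 0 to 1.16 CPM (control) against 0 to 1.19 CPM (LTβR-Ig).

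Of 20 ligand genes on the list, 11 were tested and 0 passed by edgeR, while an unadjusted p under 0.05 was found for 1 with a higher level and 2 with a lower level (3.39 and 2.93% of all genes). Tnfsf4, Fasl, Cd70, Tnfsf8 and Bdnf had no count in any library. DESeq2, which called 1.95% of all genes, called 1 higher and 1 lower. The higher one was Tnfsf11, for RANKL, at 64.3, 91.0, 65.6 and 79.6 CPM in controls 1 to 4 and 137, 260, 102 and 221 CPM in LTβR-Ig 1 to 4. The Tnfsf11 groups did not overlap, and its log2 fold change was 1.26 (SE 0.29, edgeR adjusted p = 0.252, DESeq2 adjusted p = 0.00412). Tnfsf13b, for the B cell factor BAFF, had separate groups and -0.82, but was not called by either tool (edgeR adjusted p = 0.549, DESeq2 adjusted p = 0.0925). Of the 11 tested ligands, 1 had separate groups with a higher level and 2 with a lower level, against 2.36 and 2.53% of all genes. The median over the 11 was 0.08.

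**Figure D4:**
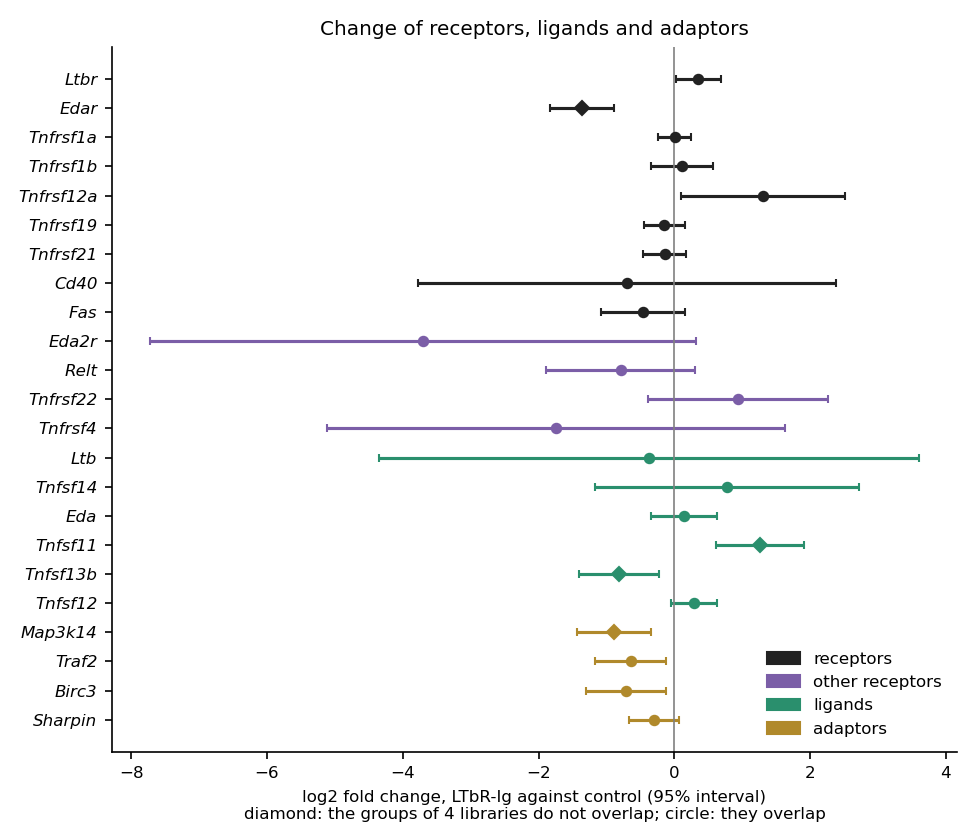
Log2 fold change with its 95% interval for the tested receptors and for named genes of the lists of other receptors, ligands and adaptors. Diamonds mark genes whose groups of 4 libraries do not overlap: Edar, Tnfsf11, Tnfsf13b and Map3k14. None of the genes passed the adjusted edgeR threshold, and low genes such as Eda2r and Ltb have wide intervals.

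Other receptors of the family were mostly low. Of 18 genes on that list 15 were tested, and 0 passed the adjusted threshold by edgeR, DESeq2, limma-voom or the stricter filter, or an unadjusted edgeR p under 0.05. Their median log2 fold change was -0.11. The genes with the smallest p after Eda2r were Relt, an orphan receptor, at 11.4 ± 7.28 and 6.61 ± 2.33 CPM (SD, n = 4 each; log2 fold change -0.79), the decoy receptor gene Tnfrsf22 at 1.80 ± 1.03 and 3.45 ± 0.896 CPM (0.94), and Tnfrsf4, for OX40, at 0.697 ± 0.485 and 0.206 ± 0.24 CPM (-1.74). All 3 overlapped between the groups. Relt was at 21.4 CPM in control 3, and without that library its log2 fold change was -0.29.

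Adaptors and kinases next to the receptors were all tested, 25 of 25. By edgeR 0 passed, and with an unadjusted p below 0.05 there were 0 with a higher level (3.39% of all genes) and 3 with a lower level (2.93%). DESeq2, which called 1.95% of all genes, called Map3k14, which encodes NIK. Map3k14 was at 47.9, 37.4, 45.5 and 26.4 CPM in controls 1 to 4 and at 24.8, 15.8, 18.8 and 25.4 CPM in LTβR-Ig 1 to 4, with a log2 fold change of -0.89 (SE 0.24, edgeR adjusted p = 0.42, DESeq2 adjusted p = 0.0311). Its groups were separate by a small margin, between LTβR-Ig 4 and control 4. Traf2, an adaptor of most TRAF-binding receptors, had -0.64 (edgeR adjusted p = 0.649), the ubiquitin ligase gene Birc3 -0.71 (adjusted p = 0.655) and Sharpin, of the linear ubiquitin complex, -0.30 (adjusted p = 0.907). The median of the list was -0.16. Of the 25, 1 had separate groups with a higher level and 1 with a lower level, against 2.36 and 2.53% of all genes. The other adaptor with separate groups, named after its values were seen, was Traf1, at 0 to 2.03 CPM (control) against 2.61 to 5.75 CPM (LTβR-Ig; log2 fold change 2.62, 95% interval -0.97 to 6.21).

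The profile of Edar over the 8 libraries was compared with those of 10585 other genes, as the root mean square difference of log2 CPM after each gene's mean was removed. The nearest was Relb, the non-canonical NF-κB subunit gene, at 0.17. The next were Nfkbie, an NF-κB inhibitor gene, at 0.27 and Dapk1, a death-associated kinase gene, at 0.29, while the values of Edar itself lay 0.73 from their mean. Relb was at 15.1, 14.0, 22.0 and 23.2 CPM in controls 1 to 4 and at 7.13, 10.2, 7.92 and 8.25 CPM in LTβR-Ig 1 to 4. As with Edar, controls 3 and 4 were above controls 1 and 2, and LTβR-Ig 2 was the highest of its group. Controls 3 and 4 also lay apart from controls 1 and 2 on the second principal component. The part of this split in the profiles was not tested. All 3 genes had separate groups and are near Edar in part for that reason. Their log2 fold changes were -1.15 for Relb (edgeR adjusted p = 0.226), -1.49 for Nfkbie (0.061) and -1.05 for Dapk1 (0.0665). DESeq2 called all 3, while the stricter filter and limma-voom called Nfkbie and Dapk1. The distance to Edar included the difference between the groups, so a fall like that of Edar was built into the choice of these genes. Their fold changes and calls are therefore no separate evidence.

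The genes nearest to Ltbr were Ube2k, a ubiquitin-conjugating enzyme gene, at 0.08, Rps4l, a ribosomal protein gene, at 0.09 and Dnajb1, a heat shock cochaperone gene, at 0.09, while Ltbr lay 0.25 from its own mean. Their log2 fold changes were 0.28, 0.25 and 0.38 (edgeR adjusted p = 0.937, 0.946 and 0.671), and all had overlapping groups. These distances are descriptions over 8 libraries of 2 groups.

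**Figure D5:**
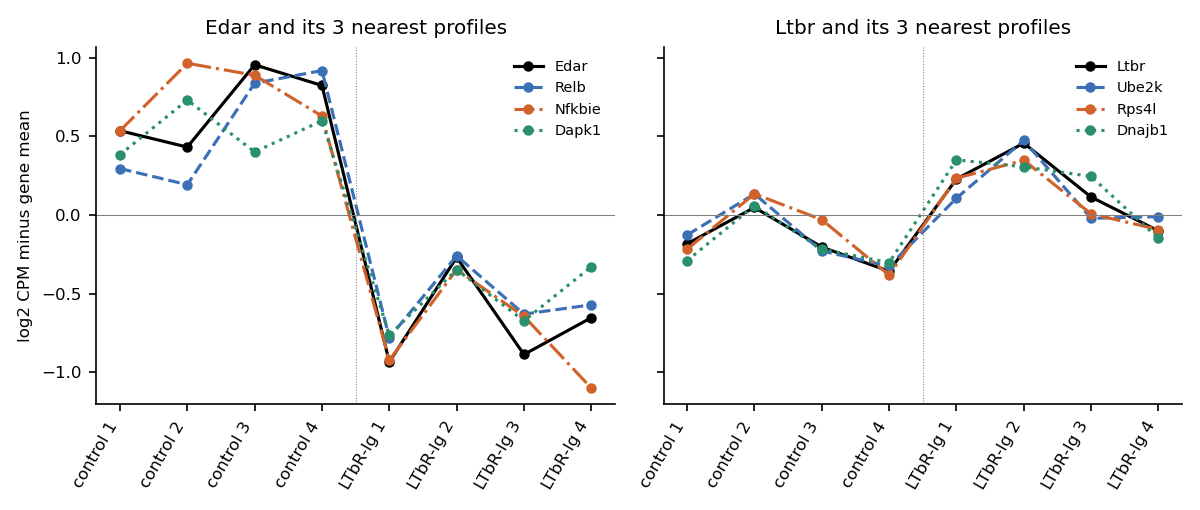
Log2 CPM minus the mean of each gene in the 8 libraries, for Edar (left) and Ltbr (right) with the 3 genes whose profiles are nearest. Edar, Relb, Nfkbie and Dapk1 are above their means in all controls and below in all LTβR-Ig libraries; Ltbr and its neighbours stay within 0.5 of theirs.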

How the data were processed

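Long-bone marrow was digested with collagenase, live LEPR+ cells negative for CD144, CD31, Ter119 and CD45 were sorted and sorted again, and their polyA RNA was read in pairs of 76 bp, per the labels' protocols. The authors deposited raw counts per gene, whole numbers with no normalization. HISAT2, HTSeq and mm10 are named per the submitters' processing notes, with versions, gene annotation and strandedness of counting not given in the sources used here.

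Gene symbols, coordinates and exon lengths came from GENCODE M21 on GRCm38, which is mm10, where 52489 of 52636 IDs matched without version. The counts were tested with edgeR 4.0.16 (R 4.3.3): TMM, filterByExpr by group (minimum count 10, minimum total 15), robust quasi-likelihood F test on all 8 libraries without covariate, and Benjamini-Hochberg adjustment over 16045 genes. CPM are TMM-scaled, and RPKM are CPM per kb of summed exons. Standard errors were taken as the absolute log2 fold change over the root of F. The test was also tested on simulated data. Alternatives used DESeq2 1.42.0 (Wald test on all genes, or size factors in edgeR), upper-quartile factors, limma 3.58.1 (voom with sample weights), no filter, a stricter filter (10 counts in 4 libraries and a mean of 5 CPM), a block for replicate number, and fits with 1 library left out. Leaving out both control 3 and LTβR-Ig 2 was chosen after seeing the data. Replicate counts differed beyond sampling noise (chi-square per degree of freedom 141 to 267), so all libraries were kept.

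Receptors and lists were chosen with earlier results of these data known. Named genes were the 10 receptors, Lta, Ltb, Tnfsf14 and Eda, up to 4 genes per list with the smallest p, and the 3 nearest profiles of Edar and Ltbr among genes with a mean of at least 5 CPM and no predicted locus. A ligand gene and a marker gene are not reported here by name, though list counts include them.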

Additional observations from a re-analysis of the deposited data

Results flagged for a closer look

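The highest or lowest of 4 libraries was singled out where its distance to the next value, as a share of the whole range, exceeded Dixon's critical value. By chance about 1 group in 20 is singled out if values are normally distributed, which does not hold for genes with counts of 0. Of 64 pairs of a named gene and a group, 7 met this. Tnfrsf1a was at 265 CPM in LTβR-Ig 2 against 216 to 222 CPM in the other LTβR-Ig libraries, and Tnfrsf19 at 211 CPM in control 1 against 288 to 299 CPM in the other controls. Ngfr was at 5.53 CPM in LTβR-Ig 4 against 0 to 0.41 CPM. Tnfsf14 stood apart in both groups, at 9.76 CPM in control 4 against 0.61 to 2.00 CPM and at 13.3 CPM in LTβR-Ig 3 against 3.11 to 4.34 CPM. Lta was at 1.08 CPM in control 2 and at 0 in the other controls, and Eda2r at 0.35 CPM in LTβR-Ig 3 and at 0 in the other LTβR-Ig libraries. Where all other libraries of a group are at 0, the rule singles out the remaining one whatever its value, so these cases carry no weight.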

How the results depend on the processing

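Edar kept its direction in all 16 alternatives, and the other tested receptors except Tnfrsf1a did so in each alternative that tested them. Over all genes the 6 calls became 338 with the DESeq2 Wald test, 22 with the stricter filter and 17 with limma-voom. They became 1 with the replicate number as a block and 1 without both control 3 and LTβR-Ig 2, and leaving out single libraries gave 2 to 9, the lowest without control 3. The receptor count of 0 became 1, Edar, with the stricter filter and with DESeq2, and stayed 0 without each single library. What the 4 pairs of the design share is not stated, and whether the replicate numbers are these pairs is not known. Deviations of same-numbered libraries correlated weakly, at 0.0749, 0.0297, 0.0453 and 0.000129, so the fit without the block was kept. Controls 1 and 2 nonetheless lay apart from controls 3 and 4 on the second principal component. The part of this split in the receptor values was not tested. With the replicate block Edar had -1.38 (edgeR adjusted p = 0.36). Without single libraries it had -1.52 to -1.26 (adjusted p 0.106 to 0.321). Tnfrsf1a, at 0.00, took the other sign with the stricter filter (-0.00093), without control replicate 4 (-0.054), without LTβR-Ig replicate 2 (-0.070), without both libraries named above (-0.038), with DESeq2 (-1.59e-05) and with limma-voom (-0.010); without single libraries it ranged from -0.070 to 0.041. Ltb, at -0.38, had 0.25 with the replicate block, 1.59 without control replicate 2, 0.04 without LTβR-Ig replicate 3 and 0.69 with limma-voom, with -1.03 to 1.59 over fits without single libraries. The cause was not tested. Ngfr, Lta, Eda2r and Ltb had no count in some libraries at like totals, and their highest counts were 284, 140, 133 and 53. Their values thus rest on only part of the libraries. Cd40 had no count in LTβR-Ig 1 alone, and its counts reached 111 in control 4.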
